A study of Mus musculus with 6 samples.

Results

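The genes described here carry sodium, chloride and water across epithelia or control that transport. They are the 3 subunits of the epithelial sodium channel ENaC (*Scnn1a*, *Scnn1b*, *Scnn1g*), the chloride channel *Cftr*, the kinase *Sgk1* and the water channels *Aqp1*, *Aqp3*, *Aqp5*, *Aqp8* and *Aqp9*. They were taken by symbol from the count table of each tissue, in which all 10 of 10 were found, each on 1 of 23420 rows. The tables came from a mouse study of leukemia inhibitory factor (Lif), a cytokine that the uterus needs for embryo attachment. RNA had been sequenced from the laser-microdissected luminal layer of the uterus and from blastocysts flushed out of the horns, all at 8 pm of day 4. Control females were Lif-floxed/floxed and received PBS, as did the females that were Lif-floxed/floxed Ltf-Cre/+ (*Lif* eKO). A further group of eKO females received recombinant Lif (rLif), 20 µg per head at 10 am and again at 6 pm, and was dissected 2 h after the last dose. The *Ltf* promoter drives Cre in uterine epithelium, so other uterine cells keep the floxed allele. Blastocysts were labelled Lif-floxed/+ in all 3 groups, so that their groups differ in the mother. Each group was 1 library made from pooled material, without replicates.

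In the uterus, ENaC in the apical membrane of the epithelium takes up sodium, and water follows through aquaporins, while Cftr lets chloride and bicarbonate out and draws water into the lumen. Removal of luminal fluid before attachment lets the lumen close around the blastocyst. Sgk1 is induced by corticosteroids and keeps ENaC at the cell surface by inhibiting its removal by the ubiquitin ligase Nedd4l. In the blastocyst, aquaporins of the trophectoderm carry water into the cavity along the gradient set up by the sodium pump.

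The libraries held between 18996158 and 28460465 counts. Counts of the targeted gene did not follow the labels of the luminal libraries. *Lif* had 0 counts in the library labelled as control, 28 in that labelled as eKO and 0 in that labelled as rLif-treated eKO. The paper places *Lif* before attachment in the glands and not in the luminal layer, so these few counts cannot check the labels. Luminal libraries are therefore called control-labelled, eKO-labelled and rLif-labelled. All 9 of 9 epithelial markers exceeded the floor of 3 counts in each luminal library, with summed levels of 5114, 6913 and 5195 CPM (reads scaled to a common library size) in the control-labelled, eKO-labelled and rLif-labelled library, the order kept below. Stromal markers (8 of 8 above the floor) summed to 726, 1140 and 780.0 CPM and immune markers to 806, 670.4 and 644 CPM, so the layer also held RNA of those kinds. Most of the immune sum was *Lyz2* (745, 612 and 549 CPM). Over the 7 immune markers, the median log2 ratio of the rLif-labelled to the control-labelled library was 0.66, so the sum does not give the order of all of them. In blastocysts all 6 of 6 trophectoderm markers and 4 of 4 inner cell mass markers were present in each library, and *Wnt7a*, a marker of uterine epithelium, was at 0 in all 3. Stromal markers summed to 155, 159 and 151 CPM there, most of it *Pdgfra* (123, 146 and 140 CPM), and *Dcn* had 164 counts in control. The 0 counts of *Wnt7a* therefore do not show that the blastocysts were free of uterine RNA. These tissues are mixtures, so fewer cells of a type and less RNA per cell cannot be told apart.

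Levels are given as counts, as CPM on library sizes scaled within a tissue, or as CPM per kilobase of exon when genes are compared with each other. Intervals are exact 95% intervals that cover counting error only. A member is called higher or lower where the whole interval of its ratio between 2 libraries lay beyond a log2 ratio of 1 (2-fold) in that direction. Such a call compares 2 pooled libraries and not 2 conditions. The 3 comparisons of a tissue share their libraries and are given side by side, and ratios are named by the labels of the libraries.

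In the luminal layer, 9 of the 10 members had the minimum of 10 summed counts, and *Aqp9* did not. Between the eKO-labelled and control-labelled libraries, 2 of 9 were called higher (*Scnn1b*, *Aqp8*) and 1 of 9 lower (*Scnn1g*), where 8.08% of the 15694 genes analysed were called higher and 9.15% lower. The median log2 ratio of the members was 0.95, against 0.0071 over all genes. Between the rLif-labelled and eKO-labelled libraries, 0 members were called higher and 4 of 9 lower (*Scnn1b*, *Sgk1*, *Aqp5*, *Aqp8*), with 7.88% and 7.77% of all genes called. The median was -1.37 over the 8 members with a ratio and -0.0082 over all genes. Between the rLif-labelled and control-labelled libraries, 0 were called higher and 3 of 9 lower (*Scnn1g*, *Sgk1*, *Aqp5*), with 4.12% and 5.04% of all genes called, and the medians were -0.13 and 0.013. In edgeR's exact test with an assumed dispersion of 0.1, which leaves room for spread between pools, the luminal calls on *Scnn1b* and the call on *Sgk1* against control were lost, and with 0.4 all luminal calls were.

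**Figure D1:**
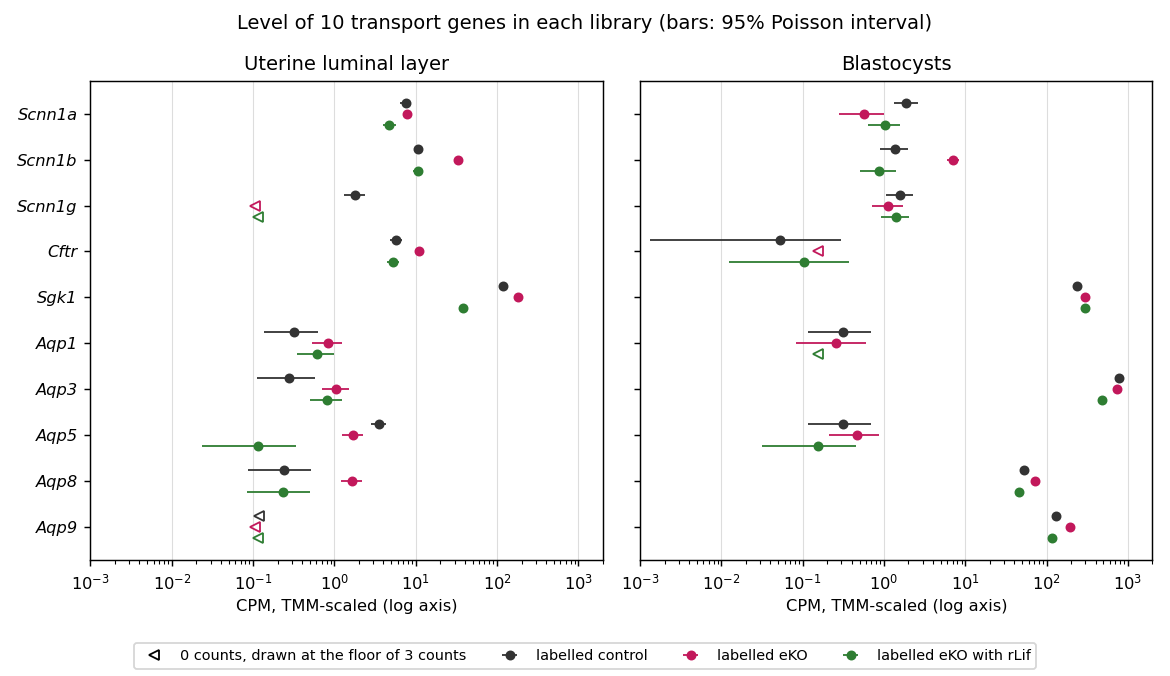
Level of each transport gene in each library, in CPM on a log axis, for the luminal layer (left) and blastocysts (right), with points for libraries, bars for 95% Poisson intervals and open triangles for libraries with 0 counts, drawn at the floor of 3 counts. In the luminal layer *Sgk1* was the highest member in each library (117, 179 and 38.6 CPM), and in blastocysts *Aqp3* was (770.1, 731 and 473 CPM).

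The β subunit of ENaC carried the largest count of the channel in every luminal library. *Scnn1b* (GRCm38/mm10, chromosome 7, 121865038 to 121918728, plus strand) had 272 counts (control-labelled), 961 (eKO-labelled) and 274 (rLif-labelled). Its CPM was 10.8 (9.53 to 12.1), 33.5 (31.4 to 35.6) and 10.5 (9.31 to 11.8). The eKO-labelled library thus stood above both others, and the intervals of the other two overlapped. The log2 ratio was 1.63 (1.44 to 1.83) for eKO against control, which is 3.11-fold, and -1.67 (-1.87 to -1.47) for rLif-treated eKO against eKO. Against control, the rLif-labelled library differed by -0.03 (-0.28 to 0.21). The epithelial and stromal marker sums given above were also highest in the eKO-labelled library, by less than *Scnn1b* was, and their part in the result was not tested.

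*Scnn1g*, the γ subunit, lies on the same strand upstream of *Scnn1b* (chromosome 7, 121734507 to 121768477), with 96.6 kb between them. It had 45 counts in the control-labelled library and 0 in both others. Its level in the first was 1.78 CPM (1.30 to 2.39). Against the floor of 3 counts in 1 library, the eKO-labelled library was at least 17.1-fold lower and the rLif-labelled library at least 15.5-fold lower. These folds leave out the counting error of the 45 counts, with which the upper limits of the log2 ratios were -3.74 and -3.59. The neighbouring β and γ subunit genes thus differed in opposite directions between the eKO-labelled and control-labelled libraries. In the rLif-labelled library γ was again at 0 counts, whereas the interval of β overlapped that of the control-labelled library. *Scnn1a*, the pore-forming α subunit (chromosome 6, 125321340 to 125344942, plus strand), had 189, 226 and 123 counts, or 7.49, 7.87 and 4.72 CPM. Its log2 ratios were 0.07 (-0.21 to 0.36) for eKO against control, -0.74 (-1.06 to -0.41) for rLif-treated eKO against eKO and -0.66 (-1.004 to -0.33) for rLif-treated eKO against control, none of which was called.

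The makeup of the channel transcripts was therefore not the same in the 3 luminal libraries. Per kilobase of exon, the 3 subunits summed to 6.53, 14.0 and 5.05 CPM per kb. *Scnn1b* made up 58.0%, 83.9% and 73.2% of that sum, *Scnn1a* 32.8%, 16.1% and 26.8%, and *Scnn1g* 9.21%, 0% and 0%. The ratio of β to α transcripts was 1.77, 5.22 and 2.74.

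**Figure D2:**
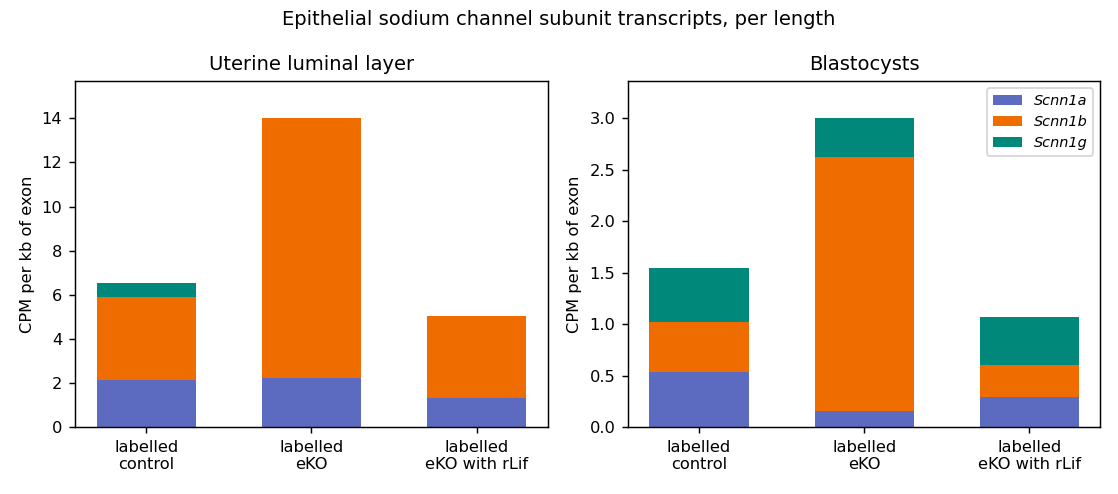
Stacked levels of the 3 ENaC subunit transcripts in CPM per kb of exon, 1 bar per library, for the luminal layer and for blastocysts, with separate vertical axes that both start at 0. The bar of the eKO-labelled library was the tallest in both tissues (14.0 and 3.002 CPM per kb), and *Scnn1b* filled 83.9% and 82.0% of it.

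The 250 bases upstream of the annotated starts of *Scnn1b* and *Scnn1g* are shown because these neighbours differed in opposite directions. The sequences are those of RefSeq (GRCm38.p6), 5′ to 3′ on the plus strand, at chr7:121864788-121865037 and chr7:121734229-121734478.
Scnn1b: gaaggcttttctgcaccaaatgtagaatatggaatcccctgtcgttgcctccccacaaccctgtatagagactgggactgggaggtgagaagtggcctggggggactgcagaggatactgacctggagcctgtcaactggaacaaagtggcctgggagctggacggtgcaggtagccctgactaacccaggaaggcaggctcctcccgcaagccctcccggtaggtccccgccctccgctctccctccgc
Scnn1g: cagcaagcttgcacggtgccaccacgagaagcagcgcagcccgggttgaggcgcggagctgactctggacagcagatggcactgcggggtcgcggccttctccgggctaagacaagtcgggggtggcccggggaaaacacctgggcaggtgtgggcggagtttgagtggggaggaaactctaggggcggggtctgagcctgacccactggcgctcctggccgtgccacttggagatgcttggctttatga
Neither window held the Stat pattern TTCNNNGAA, the hexamer AGAACA that steroid receptors bind, or a palindromic estrogen response element, each searched on both strands. Over all 32851 RefSeq windows, which are 300 bases long and run to 50 bases past the start, 8.30%, 19.0% and 0.0700% held them. The absence says only that these letters are not in the windows.

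*Sgk1*, the corticosteroid-induced kinase (chromosome 10, 21882184 to 21999902, plus strand), was the most abundant member of the luminal layer per kilobase in each library. Its counts were 2961 (control-labelled), 5146 (eKO-labelled) and 1006 (rLif-labelled). The levels were 117 (113 to 122), 179 (174 to 184) and 38.6 (36.3 to 41.1) CPM. The eKO-labelled library was the highest and the rLif-labelled library the lowest, with no overlap of intervals. The log2 ratio of rLif-treated eKO to eKO was -2.21 (-2.31 to -2.12), a 4.64-fold lower level, and to control -1.60 (-1.71 to -1.50), a 3.04-fold lower level. Between eKO and control it was 0.61 (0.55 to 0.68), inside the limit for a call.

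RefSeq gave 6 start windows for *Sgk1*, and counts per gene do not separate transcripts from different starts. The 250 bases upstream are shown for the first start, which is the first base of the gene in the deposited table (chr10:21881934-21882183), and for a start farther inside the gene (chr10:21993640-21993889), both on the plus strand, since these windows held the most pattern matches. Capitals mark TTCNNNGAA and AGAACA or, on the other strand, TGTTCT.
Sgk1 first start: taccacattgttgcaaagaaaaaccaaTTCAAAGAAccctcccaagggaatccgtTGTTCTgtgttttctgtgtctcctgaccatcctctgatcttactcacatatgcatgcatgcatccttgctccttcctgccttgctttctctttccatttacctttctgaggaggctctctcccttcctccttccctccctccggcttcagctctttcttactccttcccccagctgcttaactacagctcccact
Sgk1 inner start: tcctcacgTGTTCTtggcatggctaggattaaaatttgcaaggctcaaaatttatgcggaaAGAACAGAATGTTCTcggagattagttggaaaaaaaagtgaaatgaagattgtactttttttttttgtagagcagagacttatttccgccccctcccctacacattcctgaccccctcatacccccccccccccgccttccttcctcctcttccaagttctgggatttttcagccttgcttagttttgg
Upstream of the first start, the Stat pattern began at -223 and an AGAACA hexamer at -195, counted from the start site. Upstream of the inner start, hexamers began at -242, -189 and -180, and the last pair faced each other with 3 bases between them. This facing arrangement, searched for after it had been seen here, stood in 3 of the 32851 windows (0.00913%). A further *Sgk1* window held a hexamer at -13. Such matches describe the sequence and do not show binding. Of the other members, a window of *Aqp9* held a hexamer at -138, and the windows of *Cftr*, *Aqp1*, *Aqp3*, *Aqp5* and *Aqp8* held none of these patterns.

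*Cftr*, through which chloride and bicarbonate leave the cell (chromosome 6, 18170687 to 18322769, plus strand), had 145, 319 and 137 luminal counts. These were 5.74 (4.85 to 6.76), 11.1 (9.92 to 12.4) and 5.26 (4.42 to 6.22) CPM. As for *Scnn1b*, the eKO-labelled library was the highest and the intervals of the other two overlapped. The log2 ratios of 0.95 (0.66 to 1.24) for eKO against control and -1.08 (-1.38 to -0.78) for rLif-treated eKO against eKO had intervals that crossed the limit, so *Cftr* was not called.

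Among the aquaporins, *Aqp5* and *Aqp8* were called in the luminal layer, both at low counts. *Aqp5*, a water channel of the apical membrane of secretory epithelia (chromosome 15, 99591028 to 99594829, plus strand), had 88, 48 and 3 counts, or 3.49 (2.80 to 4.29), 1.67 (1.23 to 2.22) and 0.115 (0.0238 to 0.337) CPM. It was highest in the control-labelled library and at the floor in the rLif-labelled library. The log2 ratio of rLif-treated eKO to eKO was -3.86 (-6.19 to -2.22) and to control -4.92 (-7.22 to -3.32), and that of eKO to control, -1.06 (-1.60 to -0.54), was not called. The markers of glands (4 of the 6 listed were in the table) summed to 7.17, 4.60 and 18.1 CPM and so were highest where *Aqp5* was lowest. *Foxa2*, which defines glands, had 3, 0 and 10 counts, so it did not exceed the floor of 3 counts in the control-labelled or the eKO-labelled library. Smooth muscle markers (6 of 6, 6 of 6 and 5 of 6 above the floor) summed to 70.4, 50.5 and 31.4 CPM, the order of *Aqp5*. Of these 6 markers, 2 were called lower in the eKO-labelled than in the control-labelled library, and 4 in the rLif-labelled than in the control-labelled library, with 0 higher in either. Over all genes 9.15% and 5.04% were called lower. The median log2 ratios of the 6 markers were -0.61 and -1.80. The part of gland or muscle RNA in the *Aqp5* counts was not tested.

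*Aqp8*, which conducts water and ammonia (chromosome 7, 123462294 to 123468003, plus strand), had 6, 47 and 6 counts. The levels were 0.238 (0.0872 to 0.517), 1.64 (1.20 to 2.18) and 0.230 (0.0846 to 0.502) CPM. The eKO-labelled library stood apart from the others, with a log2 ratio of 2.78 (1.55 to 4.30) to control, and the rLif-labelled library lay at -2.83 (-4.35 to -1.60) to eKO. *Aqp8* lies 1543565 bases downstream of *Scnn1b* on the same chromosome, and both had their highest level in the eKO-labelled library and levels with overlapping intervals in the others.

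The remaining aquaporins were near the floor in the luminal layer. *Aqp1*, the channel of endothelium and red cells (chromosome 6, 55336299 to 55348555, plus strand), had 8, 24 and 16 counts, and no ratio was called. The endothelial markers (8 of 8 above the floor) summed to 56.9, 76.9 and 97.9 CPM. Of the erythroid markers, 4 of 6 were in the table and summed to 0.990, 3.90 and 1.31 CPM, nearly all of it *Alas2* (23, 112 and 30 counts). The globins *Hba-a1* and *Hba-a2* were at 0 in all 3, but they share exon sequence with each other, so these counts are uncertain. The erythroid sum had the order of *Aqp1*, as of *Aqp3*, and the part of either marker list in these counts was not tested. *Aqp3*, an aquaglyceroporin that also passes glycerol (chromosome 4, 41092724 to 41098183, minus strand), had 7, 30 and 21 counts, with a log2 ratio of 1.91 (0.70 to 3.35) for eKO against control that was not called. *Aqp9*, another aquaglyceroporin (chromosome 9, 71110659 to 71163289, minus strand), had 0 counts in all 3, which allows up to 0.119, 0.104 and 0.115 CPM at a floor of 3 counts. Added over the 5 water channels, the level was 2.68, 3.07 and 0.910 CPM per kb. The channel with the largest share of it was *Aqp5* in the control-labelled library (83.9%), *Aqp8* in the eKO-labelled library (35.8%) and *Aqp3* in the rLif-labelled library (50.3%). In the eKO-labelled library the intervals of *Aqp8* and *Aqp5* overlapped, as did those of *Aqp3* and *Aqp1* in the rLif-labelled library, so the leading channel there is not settled.

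**Figure D3:**
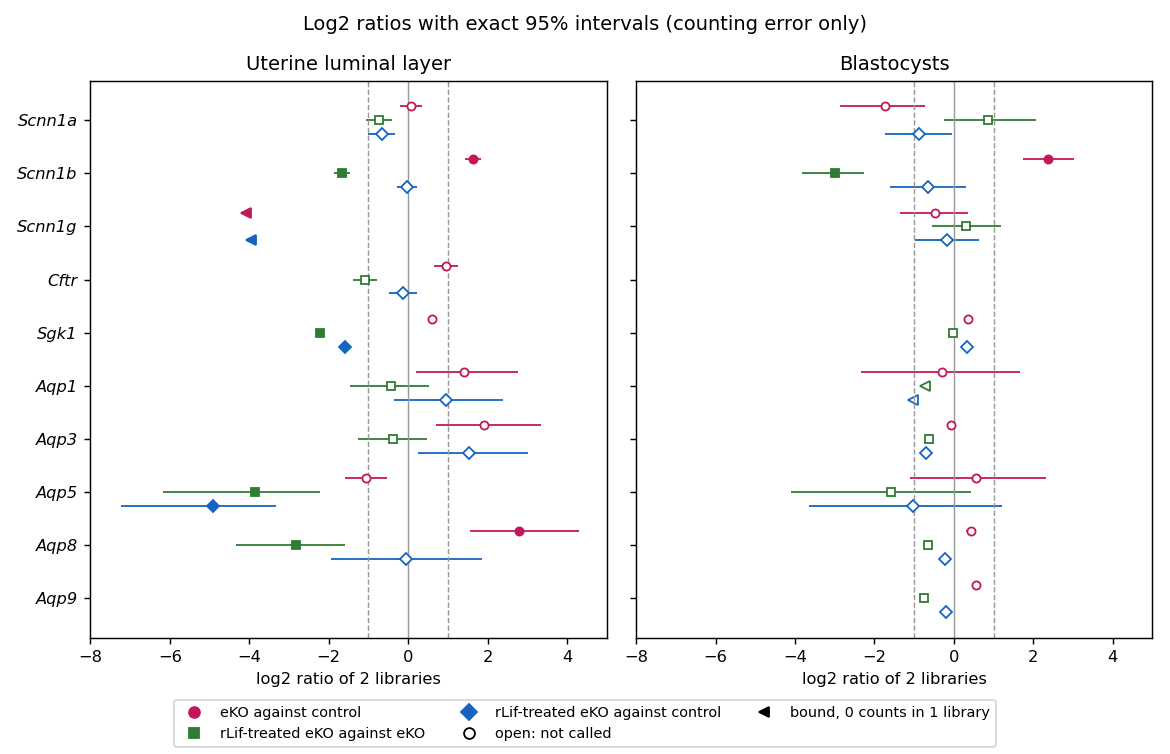
Log2 ratio of each transport gene between 2 libraries, for the luminal layer (left) and blastocysts (right), with bars for exact 95% intervals, dashed lines at the limits of -1 and 1, filled symbols for called genes and triangles for bounds where 1 library had 0 counts. In both tissues *Scnn1b* lay to the right for eKO against control (1.63 and 2.36) and to the left for rLif-treated eKO against eKO (-1.67 and -3.003).

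The order of the luminal levels per kilobase of exon had *Sgk1* first, *Scnn1b* second and *Scnn1a* and *Cftr* among the next in each library. In the control-labelled library it ran *Sgk1* (28.2 CPM per kb), *Scnn1b* (3.78), *Aqp5* (2.25), *Scnn1a* (2.14), *Cftr* (0.911), *Scnn1g* (0.601) and then *Aqp8*, *Aqp3* and *Aqp1* (0.160 to 0.115). The intervals overlapped between *Aqp5* and *Scnn1a*, between *Cftr* and *Scnn1g*, and among the last group. In the eKO-labelled library, *Sgk1* (43.1) and *Scnn1b* (11.8) stood apart, *Scnn1a* (2.25) and *Cftr* (1.76) overlapped, and so did each neighbouring pair from *Aqp8* (1.10) over *Aqp5* (1.08) and *Aqp3* (0.593) to *Aqp1* (0.303). In the rLif-labelled library, *Sgk1* (9.30), *Scnn1b* (3.70), *Scnn1a* (1.35), and *Cftr* (0.835) each stood apart from the next member, and from *Aqp3* (0.458) downwards neighbours overlapped.

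Other genes of sodium, chloride and water transport came from 5 lists with 49 genes, of which the 13 with a luminal call and at least 100 counts in a luminal library are described. ENaC is opened by proteases that cut its α and γ subunits. Of 6 such proteases and their inhibitors, 4 were called lower and 0 higher between the eKO-labelled and control-labelled libraries, with a median log2 ratio of -1.32. Beside these and the counts of the lists below stand the values over all genes, which were 8.08% higher and 9.15% lower with a median of 0.0071 for eKO against control. They were 7.88% and 7.77% with -0.0082 for rLif-treated eKO against eKO, and 4.12% and 5.04% with 0.013 for rLif-treated eKO against control. The activating serine protease *Tmprss4* had 4151, 1103 and 1156 counts and was called lower for eKO against control (-2.10) and for rLif-treated eKO against control (-1.89). The membrane protease *St14* had 6619, 3136 and 6919 counts and its inhibitor *Spint1* 15865, 4437 and 10065. Both were called lower for eKO against control (-1.26 and -2.02) and higher for rLif-treated eKO against eKO (1.28 and 1.32). *Furin*, the proprotein convertase that cleaves ENaC inside the cell, had 431, 188 and 240 counts and was called lower for eKO against control (-1.38). Among the called genes, enzyme and inhibitor thus differed in the same direction. The listed protease *Prss8*, named after its values were seen, had 12240, 13113 and 12548 counts and was not called. It shares exon sequence with *Kat8*, so its counts are uncertain. Between the rLif-labelled and eKO-labelled libraries, 2 of 6 were called higher and 0 lower (median 0.35), and between the rLif-labelled and control-labelled libraries 0 higher and 1 lower (median -0.59).

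Corticosteroid signaling and ENaC turnover, the list to which *Sgk1* is closest in function, had 11 of 12 genes analysed. It had 0 calls for eKO against control (median 0.35), 2 lower for rLif-treated eKO against eKO (median -0.58) and 0 for rLif-treated eKO against control (median -0.28). The 2 were *Tsc22d3*, a corticosteroid-induced gene that encodes Gilz, with 12573, 22273 and 6772 counts and a log2 ratio of -1.58, and *Hsd11b1*, which regenerates active glucocorticoid, with 255, 364 and 118 counts and -1.48. In both, as in *Sgk1*, the eKO-labelled library was the highest and the rLif-labelled library the lowest. The glucocorticoid receptor *Nr3c1* had 520, 917 and 520 counts and was not called, and the mineralocorticoid receptor *Nr3c2* had 6, 13 and 6.

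The sodium pump keeps cell sodium low and so drives uptake through ENaC. Of its 8 listed subunits and regulators, 1 was called higher and 1 lower for eKO against control (median -0.02), 0 higher and 1 lower for rLif-treated eKO against eKO (median -0.54), and 1 higher and 1 lower for rLif-treated eKO against control (median -0.02). With 8 genes, 1 call is close to the share over all genes. The pump regulator *Fxyd4* had 11039, 136115 and 29620 counts and was called in all 3 comparisons, with log2 ratios of 3.44, -2.06 and 1.38. *Atp1b2*, named after its values were seen, had 60, 20 and 10 counts and was called lower against control in both.

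Of 16 genes for other chloride, bicarbonate and proton-coupled transport, 14 were analysed. For eKO against control, 1 was called higher and 4 lower (median -0.37), for rLif-treated eKO against eKO 5 higher and 0 lower (median 0.75), and for rLif-treated eKO against control 1 of each (median -0.02). The anion exchanger *Slc26a6*, which moves chloride against bicarbonate, had 1202, 100 and 4115 counts, with log2 ratios of -3.77, 5.50 and 1.73 that were all called. The sodium-proton exchanger *Slc9a2* had 286, 14 and 81 counts and ratios of -4.54, 2.67 and -1.86, all called. These exchangers were lowest in the eKO-labelled library, the one in which *Scnn1b* was highest. Carbonic anhydrase *Car12* had 2635, 937 and 2337 counts, with called ratios of -1.68 for eKO against control and 1.46 for rLif-treated eKO against eKO. *Slc12a2*, which loads chloride into secretory cells, had 6122, 4319 and 11053 counts and was called higher for rLif-treated eKO against eKO (1.497). The calcium-activated chloride channel *Ano1* had 322, 1050 and 653 counts and was the gene called higher for eKO against control (1.52). The other call among the 4 and the 5 was *Slc26a4*, named after its values were seen, with 63, 9 and 40 counts.

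Of the 7 other aquaporins, 5 were analysed in the luminal layer. *Aqp11*, an aquaporin of intracellular membranes, had 3810, 8257 and 3374 counts, more than any member aquaporin in this tissue, and was called lower for rLif-treated eKO against eKO (-1.15) while its ratio of 0.93 for eKO against control was not called. The list had 1 higher and 1 lower for eKO against control (median 0.93), 0 and 2 for rLif-treated eKO against eKO (median -1.50 over 4) and 0 and 1 for rLif-treated eKO against control (median -1.16). The calls besides *Aqp11* were on *Aqp2* (1, 16 and 4 counts), *Aqp4* (15, 1 and 0) and *Mip* (7, 22 and 2), all named after their values were seen.

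**Figure D4:**
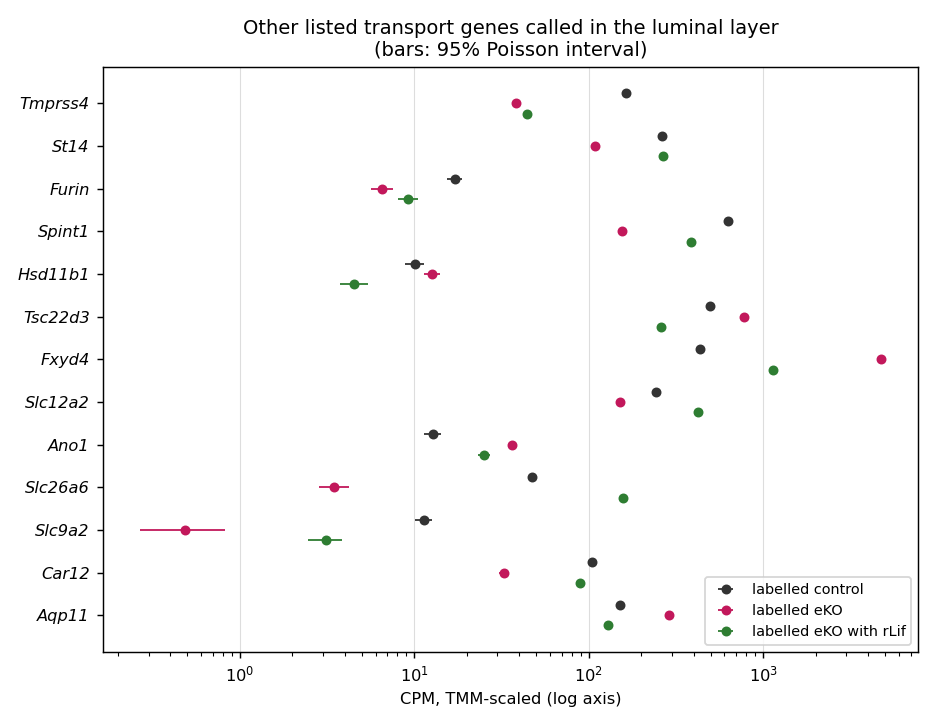
Luminal level in CPM, on a log axis, of the 13 other listed transport genes that were called and had at least 100 counts in a luminal library, with 1 point per library and bars for 95% Poisson intervals. The eKO-labelled library had the highest point for *Fxyd4* (136115 counts against 11039 in the control-labelled library) and the lowest for *Slc26a6* and *Slc9a2* (100 and 14 counts).

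In blastocysts the members had another order of levels. Again 9 of 10 had enough counts, here all but *Cftr*, which had 1 count in control, 0 in eKO and 2 in rLif-treated eKO blastocysts. Per kilobase of exon the order was *Aqp3*, *Sgk1*, *Aqp9* and *Aqp8* in each library, without overlap of intervals between neighbours. In control these levels were 437, 56.6, 42.3 and 35.6 CPM per kb, and the next member, *Scnn1a*, lay at 0.540. The level of *Aqp3* exceeded that of 99.3% of the genes analysed in control blastocysts. *Aqp3* and *Aqp9*, near or at 0 counts in the luminal layer, were thus among the most abundant members here, although levels of the 2 tissues were scaled separately and are not set in a ratio.

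For eKO against control, 1 of 9 members was called higher and 0 lower (1.29% and 1.86% of 14873 genes), with a median log2 ratio of 0.35 over the members and -0.0028 over all genes. For rLif-treated eKO against eKO, 0 were called higher and 1 lower (0.914% and 2.83%), with medians of -0.65 and -0.0098. For rLif-treated eKO against control, 0 were called in either direction (0.948% and 3.99%), with medians of -0.64 and -0.012. With an assumed dispersion of 0.1 the call for eKO against control was lost, and with 0.4 both were.

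Both calls were on *Scnn1b*. Control blastocysts had 26 counts, eKO blastocysts 137 and rLif-treated eKO blastocysts 17, or 1.36 (0.891 to 2.00), 7.01 (5.88 to 8.29) and 0.875 (0.509 to 1.40) CPM. The eKO library was above the others, which overlapped. The log2 ratios were 2.36 (1.75 to 3.03), -3.003 (-3.82 to -2.27) and, for rLif-treated eKO against control, -0.64 (-1.61 to 0.30). The luminal libraries of the same labels had this order of *Scnn1b* too, at higher counts. Immune markers, 7 of 7 above the floor, summed to 61.2, 128 and 23.9 CPM, the same order. Most of each sum was *Lyz2*, a macrophage and granulocyte lysozyme, with 976, 2128 and 289 counts (51.2, 109 and 14.9 CPM). Of the 7, 1 was called higher and 0 lower for eKO against control (median 1.04). For rLif-treated eKO against eKO, 4 were called lower and 0 higher (median -1.61), and against control 1 lower and 0 higher (median -0.48). Over all genes, 1.29% were called higher in the first comparison and 2.83% lower in the second. Of the 7 stromal markers analysed, 2 were called lower for eKO against control and 3 for rLif-treated eKO against control, with 0 higher in either. Over all genes 1.86% and 3.99% were called lower. The stromal medians were -1.06 and -1.28. Whether RNA of either kind has a part in the *Scnn1b* counts was not tested.

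*Scnn1a* had 36, 11 and 20 counts in blastocysts and *Scnn1g* 30, 22 and 27, none of them called. The log2 ratio of *Scnn1a* for eKO against control was -1.75 (-2.87 to -0.74), with an interval across the limit, and that of *Scnn1g* was -0.48 (-1.35 to 0.36). Per kilobase the 3 subunits were close to equal in control, where *Scnn1a* made up 34.8%, *Scnn1b* 30.9% and *Scnn1g* 34.2% of 1.55 CPM per kb. In eKO blastocysts *Scnn1b* made up 82.0% of 3.002 CPM per kb and in rLif-treated eKO 28.7% of 1.07. *Krt19*, an epithelial keratin named after its values were seen, had 1401, 241 and 108 counts. It was highest in control like *Scnn1a*, but lowest in rLif-treated eKO, where *Scnn1a* was lowest in eKO. Of the 8 epithelial markers analysed, 1 was called lower and 0 higher for eKO against control (median 0.046). The epithelial markers as a whole (8 of 9 above the floor, *Wnt7a* at 0) summed to 6980, 7291 and 6892 CPM. Their part in the *Scnn1a* counts was not tested.

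*Sgk1* had 4482, 5867 and 5721 counts in blastocysts, or 235, 300.2 and 294 CPM, and log2 ratios of 0.35 (0.30 to 0.41) for eKO and 0.32 (0.27 to 0.38) for rLif-treated eKO against control. Between rLif-treated and untreated eKO the ratio was -0.03 (-0.08 to 0.02), where the luminal ratio was -2.21. The difference between the tissues was not tested, since each value rests on single libraries.

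The 3 abundant water channels of blastocysts had small ratios with narrow intervals. *Aqp3* had 14681, 14286 and 9204 counts, or 770.1, 731 and 473 CPM. Its log2 ratio was -0.08 (-0.11 to -0.04) for eKO against control and -0.70 (-0.74 to -0.66) for rLif-treated eKO against control, lower there but inside the limit. *Aqp9* had 2513, 3793 and 2239 counts, with ratios of 0.56 (0.48 to 0.63) for eKO against control and -0.75 (-0.83 to -0.68) for rLif-treated eKO against eKO. *Aqp8* had 1009, 1392 and 884 counts and the corresponding ratios of 0.43 (0.31 to 0.55) and -0.65 (-0.77 to -0.52). *Aqp9* and *Aqp8* were thus highest in eKO, whereas *Aqp3* was lowest in rLif-treated eKO and nearly level between the others. *Aqp9* is also made by leukocytes. The sum of the immune markers, most of it *Lyz2*, had the same order of libraries, and the part of leukocyte RNA in the *Aqp9* counts was not tested. Together the 5 water channels reached 515, 525 and 336 CPM per kb, with *Aqp3* at 84.8%, 78.9% and 79.9% of that. *Aqp1* had 6, 5 and 0 counts and *Aqp5* 6, 9 and 3.

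In blastocysts the 6 ENaC proteases and inhibitors and the 2 other aquaporins analysed had 0 calls in the 3 comparisons. Of 12 genes of corticosteroid signaling, *Tsc22d3* (187, 205 and 71 counts) was called lower for rLif-treated eKO against eKO (-1.52) and against control (-1.43), in blastocysts whose *Sgk1* was at 300.2 CPM in eKO and 294 CPM in rLif-treated eKO. The medians of that list were -0.37 and -0.30 in these 2 comparisons. Of 7 pump genes, *Atp1b2* (82, 112 and 33 counts) was called lower for rLif-treated eKO against eKO (-1.75), where the list median was -0.057. The pump subunit *Atp1b1* (7325, 7622 and 7286 counts) was not called, though it shares exon sequence with *Nme7* and is uncertain. Of 14 chloride and bicarbonate transport genes, 0 were called higher and 3 lower for eKO against control (median 0.16). For rLif-treated eKO against eKO it was 1 and 1 (median -0.30 over 12), and for rLif-treated eKO against control 0 and 2 (median -0.50). Beside all these lists, 1.29% of all genes were called higher and 1.86% lower for eKO against control. The shares were 0.914% and 2.83% for rLif-treated eKO against eKO, and 0.948% and 3.99% for rLif-treated eKO against control. Medians over all genes were -0.0028, -0.0098 and -0.012 in the 3 comparisons. The genes called were *Ano1* (43, 6 and 30), *Slc26a3* (10, 0 and 0), *Slc26a9* (13, 0 and 2), *Car12* (48, 98 and 20) and *Car2* (330, 142 and 66), named here by their calls. *Slc26a3* and *Slc26a9* reached the minimum of 10 summed counts only through control, so against control they could be called only lower.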

How the data were processed

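RNA was isolated with NucleoSpin, per the labels, and the authors made 6 pooled libraries, 1 per group, with the SMART-seq v4 low-input kit, which were sequenced by a service (BGI). Paired-end reads had been aligned to GRCm38/mm10 with HISAT2 and assigned to genes with featureCounts (Subread 2.0.0, per the labels). The deposited values are whole-number counts of reads per gene, summed over exons, in 1 table per tissue, although the methods speak of RPKM. Which annotation release was used, and how strand and multimapping reads were handled, is not given in the sources used here.

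Samples were grouped by their labels. A gene was analysed in a tissue if its 3 libraries held 10 counts or more together (15694 luminal, 14873 blastocyst genes). Library sizes were scaled by TMM within a tissue (edgeR 4.0.16, R 4.3.3). Levels carry exact Poisson 95% intervals and ratios exact Clopper-Pearson intervals (scipy 1.17.1). They cover counting error only, since each group was 1 library. PCR reads without molecular identifiers are not independent molecules, so the intervals may be too narrow even for counting error. With 1 library per group there was no dispersion estimate, so p-values are left out. A call required the interval to lie wholly beyond a log2 ratio of 1, and a fold against 0 counts used a floor of 3 counts per library. Exon lengths and positions were those of the deposited tables, and no member shared exon sequence with another gene there. Promoter windows were taken from RefSeq (GRCm38.p6), where 9 of 10 members matched (all but *Scnn1a*). All 10 members were described, as were listed genes called in at least 1 luminal comparison with at least 100 counts in 1 luminal library. Members and lists were chosen with earlier results of these data known. Alternatives were DESeq2 1.42.0 size factors, total counts, minimum counts of 1 and 50, the ratio without its interval, a log2 limit of 2, and edgeR's exact test with assumed dispersions of 0.1 and 0.4 at a false discovery rate of 0.05. One listed gene is not reported here.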

Additional observations from a re-analysis of the deposited data

How the results depend on the processing

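The numbers of members called did not move beyond 1.5 times under DESeq2 size factors, total counts or minimum counts of 1 and 50, and no ratio of a member changed sign under the 2 other scalings. Total counts shifted the luminal log2 ratios of all genes by -0.07 (eKO against control), -0.11 (rLif-treated eKO against eKO) and -0.18 (rLif-treated eKO against control). The minimum of 50 removed *Scnn1g* from the luminal calls. With the ratio alone beyond the limit, 6 members in place of 3 were called for luminal eKO against control. In blastocysts this setting gave 2 in place of 1 for eKO against control, 3 in place of 1 for rLif-treated eKO against eKO, and 2 in place of 0 for rLif-treated eKO against control. With intervals beyond a log2 ratio of 2, luminal eKO against control had 1, luminal rLif-treated eKO against eKO had 2 in place of 4, and blastocyst eKO against control had 0. With edgeR's exact test at an assumed dispersion of 0.1, blastocyst eKO against control had 0. At 0.4, 0 members were called in each of the 3 luminal and 3 blastocyst comparisons. These dispersions are assumptions, since none can be estimated. No paired analysis was possible because each group was 1 library, and for the same reason no replicate could be left out. Luminal *Aqp1*, *Aqp3*, *Aqp5* and *Aqp8* had under 10 counts in at least 1 library, and ratios to such a library have intervals wider than 2-fold, so that smaller differences were not detectable at this depth.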
